A study of Mus musculus with 4 samples.

Results

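C-type lectin receptors of myeloid cells are surface proteins that read sugars, lipids and products of dead cells. Activating members signal through the kinase Syk and the Card9, Bcl10 and Malt1 complex, which engages TAK1 and NF-kB, while inhibitory members recruit phosphatases such as SHP-1. Several serve as markers of monocytes, dendritic cells and tissue macrophages, and Clec7a is also known from activated microglia. The 8 genes described here, Cd209a, Clec10a, Mgl2, Clec12a, Clec4a1, Clec4a2, Clec4a3 and Clec7a, were picked by symbol from the 15586 genes of the table. The choice was made with their values in this comparison known, so those values are a description and carry no test.

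The libraries came from retinal microglia of 2-month-old mice, 200 cells each, collected by fluorescence-activated sorting on EYFP. All mice had 1 CreER allele at the Cx3cr1 locus, a gene that monocytes and other macrophages also use. The TAK1 knockout group (TAK1_KO, 2 libraries) was injected with tamoxifen at 75 mg/kg on 5 consecutive days, and its genotype label reads Cx3cr1CreER/+;Tak3fl/fl. The control group (CON, 2 libraries) was injected with corn oil on 5 consecutive days, and its label reads Cx3cr1CreER/+;Tak1fl/fl. The protocol gives Tak1 for both groups, and the groups are named here by their titles. Only TAK1_KO mice had tamoxifen, so the drug and the deletion cannot be told apart. The labels name no animal for a library, and p-values therefore reflect library-to-library spread that could be technical in part or whole. The series title names retinitis pigmentosa, an inherited photoreceptor loss, but no sample label names a disease genotype.

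Values are FPKM (fragments scaled to transcript length and library total), which allow levels to be set side by side between genes. FPKM summed to 812009 to 823229 in the TAK1_KO libraries and 863652 to 969700 in the CON libraries, and read depth is unknown. Map3k7, which encodes TAK1, read 0.02 and 0.08 FPKM in TAK1_KO and 0.03 and 0 FPKM in CON, too low in both groups to check the labels. Values near 0 were common in single libraries. Of genes at 100 to 200 FPKM in 1 library, 10.01% in TAK1_KO and 26.2% in CON read under 3 FPKM in the other library of the same group. The same share was 25.2% and 38.8% for genes at 50 to 100 FPKM, and 2.69% and 9.58% for genes at 200 to 500 FPKM. At 500 FPKM or more it was 0 of 552 values in TAK1_KO and 2 of 669 (0.299%) in CON. A lone value near 0 is thus weak evidence of silence for genes at these levels, above all under 200 FPKM.

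**Figure D1:**
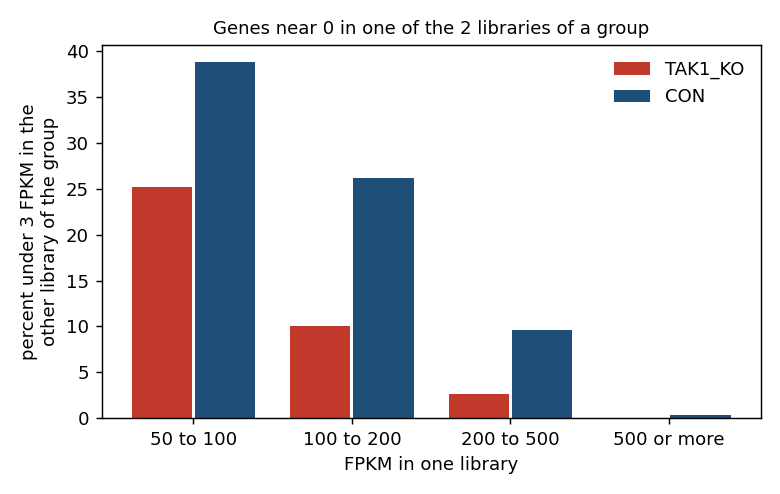
Share of genes that read under 3 FPKM in one library (vertical axis, percent) while the other library of the same group held the level on the horizontal axis (FPKM), for TAK1_KO (red) and CON (blue). The share is 25.2% in TAK1_KO and 38.8% in CON at 50 to 100 FPKM and under 1% in both groups at 500 FPKM or more.

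The promoters of 5 of the genes are shown because their transcripts stand apart between the groups or come from neighbouring copies. RefSeq promoter windows of 300 bases, 250 before to 50 after a transcript start, matched 7 of the 8 genes in 9 windows, and Clec10a had none. They are on GRCm38.p6, the assembly that the name mm10 of the deposited values stands for. The transcript starts of the Clec12a and Mgl2 windows and of the Clec4a3 window shown lie inside the gene coordinates given below. In the first 3 windows capitals mark motif matches: the PU.1 core GAGGAA, the C/EBP palindrome TTGCGCAA, the ETS-IRF composite (GGAA and GAAA with 2 bases of any kind between them) and the AP-1 motif TGANTCA, on either strand. PU.1, C/EBP and IRF proteins are transcription factors of myeloid cells.
Cd209a, chr8:3748935-3749234, minus strand: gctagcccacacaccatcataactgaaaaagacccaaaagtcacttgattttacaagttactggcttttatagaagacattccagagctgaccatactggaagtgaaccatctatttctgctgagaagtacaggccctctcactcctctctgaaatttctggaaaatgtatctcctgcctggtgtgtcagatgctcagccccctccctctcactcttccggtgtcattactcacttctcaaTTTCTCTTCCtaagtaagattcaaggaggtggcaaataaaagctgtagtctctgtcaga
Clec12a, chr6:129349994-129350293, plus strand: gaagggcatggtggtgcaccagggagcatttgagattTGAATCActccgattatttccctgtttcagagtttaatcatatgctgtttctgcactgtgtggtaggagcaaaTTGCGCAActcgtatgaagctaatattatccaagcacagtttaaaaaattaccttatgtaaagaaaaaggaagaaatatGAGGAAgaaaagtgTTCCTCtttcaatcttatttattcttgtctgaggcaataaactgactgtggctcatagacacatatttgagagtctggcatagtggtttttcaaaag
Mgl2, chr11:70130107-70130406, plus strand: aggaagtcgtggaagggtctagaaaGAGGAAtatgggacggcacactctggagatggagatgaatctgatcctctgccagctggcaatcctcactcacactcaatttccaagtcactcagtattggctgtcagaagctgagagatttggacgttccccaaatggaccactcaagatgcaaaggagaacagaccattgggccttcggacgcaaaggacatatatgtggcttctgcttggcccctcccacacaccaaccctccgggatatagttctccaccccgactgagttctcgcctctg
In the other 2 windows capitals mark the longest run of bases that these windows of the neighbouring copies Clec4a1 and Clec4a3 share. The Clec4a3 window with the longer run is shown. Its other window, which starts at 122952265, shares at most 8 bases with Clec4a1.
Clec4a1, chr6:122921598-122921897, plus strand: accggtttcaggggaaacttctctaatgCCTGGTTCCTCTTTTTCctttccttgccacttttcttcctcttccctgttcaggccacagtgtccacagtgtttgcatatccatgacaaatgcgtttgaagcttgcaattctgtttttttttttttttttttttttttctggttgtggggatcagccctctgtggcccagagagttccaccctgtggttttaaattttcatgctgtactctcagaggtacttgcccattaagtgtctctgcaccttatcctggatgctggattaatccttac
Clec4a3, chr6:122952394-122952693, plus strand: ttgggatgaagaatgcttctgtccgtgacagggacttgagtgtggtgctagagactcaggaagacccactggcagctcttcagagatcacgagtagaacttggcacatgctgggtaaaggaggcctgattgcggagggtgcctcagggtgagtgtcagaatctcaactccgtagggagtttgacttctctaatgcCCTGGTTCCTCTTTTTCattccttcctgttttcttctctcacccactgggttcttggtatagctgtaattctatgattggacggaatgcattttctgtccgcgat

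The shared run of Clec4a1 and Clec4a3 was 17 bases long and holds the PU.1 core on the minus strand. Any other pair of the 7 genes with a window shared at most 11 bases. Pairs with Clec10a, which had no window, were not compared. The PU.1 core was found in 6 of the 9 windows, from 5 genes (Clec4a1, Clec4a3, Clec12a, Clec7a and Mgl2), and in 28.3% of all 32851 promoter windows of the same length. The C/EBP palindrome was found in Clec12a, 140 bases before the transcript start of its window, and in 0.183% of all windows. That window starts at 129349994, inside the Clec12a coordinates given below, which start at 129349783. The ETS-IRF composite was found in Cd209a, Clec4a1 and Clec7a and in 2.72% of all windows, and AP-1 in Clec4a2 and Clec12a and in 7.81% of all windows. The motifs were chosen with the sequences in view, and a match is a run of letters, not a binding site.

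In 7 of the 8 lectin genes both TAK1_KO libraries read lower than both CON libraries, and in Clec7a the groups overlapped. Of all 7823 genes tested, 890 (11.4%) had both TAK1_KO libraries below both CON libraries and 2174 (27.8%) had them above. All 8 passed the filter of a mean of 1 FPKM, Mgl2 and Clec12a through their CON libraries and Clec10a through CON 1 alone. The genes were chosen on this contrast, so nothing is read from that count. Summed over the 8 genes, the level was 311 and 343 FPKM in TAK1_KO and 2107 and 2975 FPKM in CON, or 0.0378% and 0.0422% of all FPKM in TAK1_KO and 0.217% and 0.344% in CON. In bulk samples, fewer cells of a type and less RNA per cell cannot be told apart.

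Cd209a encodes a lectin related to human DC-SIGN that marks monocyte-derived and some conventional dendritic cells (chromosome 8, 3743395 to 3748984). It read 1.19 and 2.10 FPKM in TAK1_KO and 503 and 886 FPKM in CON. The groups lay far apart, and each of the 4 values was close to its partner relative to that gap. Among the 15586 genes Cd209a ranked 5958 and 5175 in TAK1_KO and 345 and 174 in CON. Its difference on the log2(FPKM + 1) scale, TAK1_KO minus CON, was -8.00, against a median of 0.94 for all genes tested, so it stood at -8.94 relative to that median.

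Mgl2 and Clec10a, which encode receptors for galactose and N-acetylgalactosamine on macrophages and dendritic cells, lie next to each other on chromosome 11 (70130125 to 70137542 and 70166623 to 70170836). Mgl2 read 0 and 0.30 FPKM in TAK1_KO and 83.0 and 110.6 FPKM in CON, with wide separation. Clec10a was listed at 0 in both TAK1_KO libraries and read 24.1 and 0.10 FPKM in CON. CON 2 was thus near 0 for Clec10a as well, and its separation rests on CON 1 alone. The longest open reading frames of these genes were 88.6% identical over 916 aligned bases, with 1 identical run of 183 bases, so reads could have been split between them and the level of either is uncertain.

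Clec12a encodes an inhibitory receptor, known to sense uric acid crystals and dead cells (chromosome 6, 129349783 to 129365303). It read 0.36 and 0.48 FPKM in TAK1_KO and 144 and 199 FPKM in CON, a log2 difference of -6.91, or -7.84 relative to the median of all genes. Cd209a, Mgl2 and Clec12a were 3 of 19 genes (0.243% of those tested) that read at least 50 FPKM in both CON libraries and under 3 FPKM in both TAK1_KO libraries. The opposite pattern was seen in 75 genes (0.959%). The choice of the lectins used these values, so nothing is read from their number.

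The Clec4a genes encode the dendritic cell immunoreceptor family, of which Clec4a2 carries an inhibitory ITIM motif. Clec4a3 (chromosome 6, 122952515 to 122969878) read 135 and 154 FPKM in TAK1_KO and 701 and 816 FPKM in CON. It was the most abundant of the 8 by mean, the groups did not overlap, and its means of 144 ± 14.1 FPKM in TAK1_KO and 759 ± 81.1 FPKM in CON (SD, n = 2 each) differed 5.25-fold. Its log2 difference was -2.38, or -3.32 relative to the median of all genes.

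Clec4a2 (chromosome 6, 123122690 to 123143999) read 31.3 and 0.63 FPKM in TAK1_KO and 469 and 290 FPKM in CON. Clec4a1 (chromosome 6, 122921848 to 122934619) read 49.3 and 0.39 FPKM in TAK1_KO and 140 and 334 FPKM in CON. Both were present in TAK1_KO 1 and near 0 in TAK1_KO 2. As a ratio, though not in FPKM, the TAK1_KO libraries thus differed from each other more than the CON libraries did. Their log2 differences of -5.67 and -4.70 became -7.83 and -7.29 without TAK1_KO 1, and -3.52 and -2.11 without TAK1_KO 2. The open reading frames of the Clec4a genes were 72.7% to 76.8% identical in pairs, with identical runs of at most 34 bases.

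Clec7a encodes dectin-1, an activating receptor for beta-glucan that signals through Syk (chromosome 6, 129461591 to 129472785). It read 94.4 and 185 FPKM in TAK1_KO and 43.6 and 339 FPKM in CON. Both TAK1_KO values lay between the CON values, which differed 7.77-fold. The log2 difference was 0.11, but -1.35 without CON 1, 1.58 without CON 2, -0.37 without TAK1_KO 2 and -0.77 after median ratio scaling, so no direction is given for it.

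**Figure D2:**
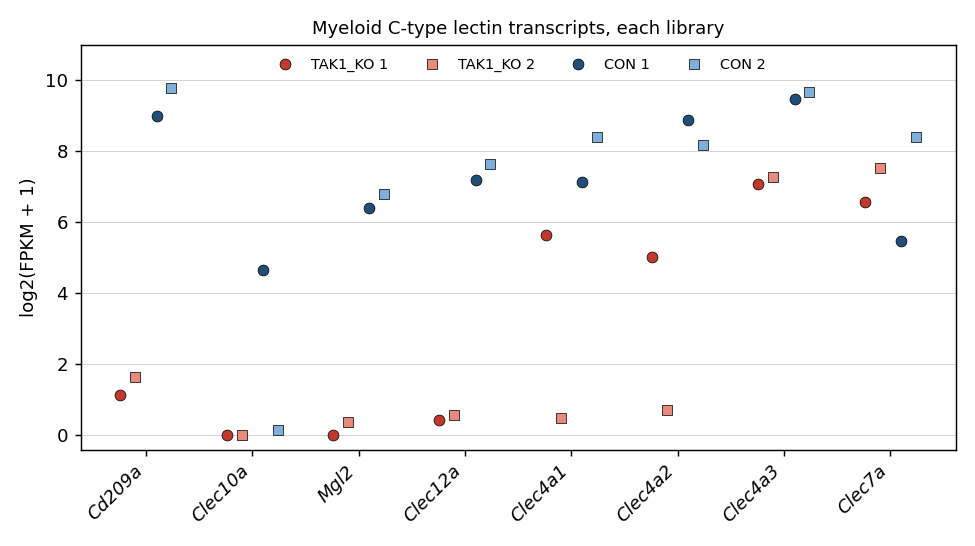
Levels of the 8 lectin transcripts in each library on the log2(FPKM + 1) scale, with TAK1_KO libraries in red left of the CON libraries in blue for each gene. Cd209a, Mgl2 and Clec12a lie at or under 2.10 FPKM in both TAK1_KO libraries, whereas the Clec7a points of the groups overlap.

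The order of levels differed between groups. In TAK1_KO, Clec4a3 (135 and 154 FPKM) and Clec7a (94.4 and 185 FPKM) came first and did not differ beyond their spread, and together they held 43.3% and 30.3% of the summed level in TAK1_KO 1 and 45.02% and 53.8% in TAK1_KO 2. In CON, Clec4a3 (701 and 816 FPKM) and Cd209a (503 and 886 FPKM) came first with overlapping ranges, with 33.3% and 23.9% of the summed level in CON 1 and 27.4% and 29.8% in CON 2. Cd209a held 0.383% and 0.612% of it in TAK1_KO. The CON ranges of Clec4a1 and Clec7a overlapped those of Clec4a2 and Clec12a, while Clec4a2 read above Clec12a in each CON library. Clec12a read above Mgl2 and Mgl2 above Clec10a in each CON library.

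**Figure D3:**
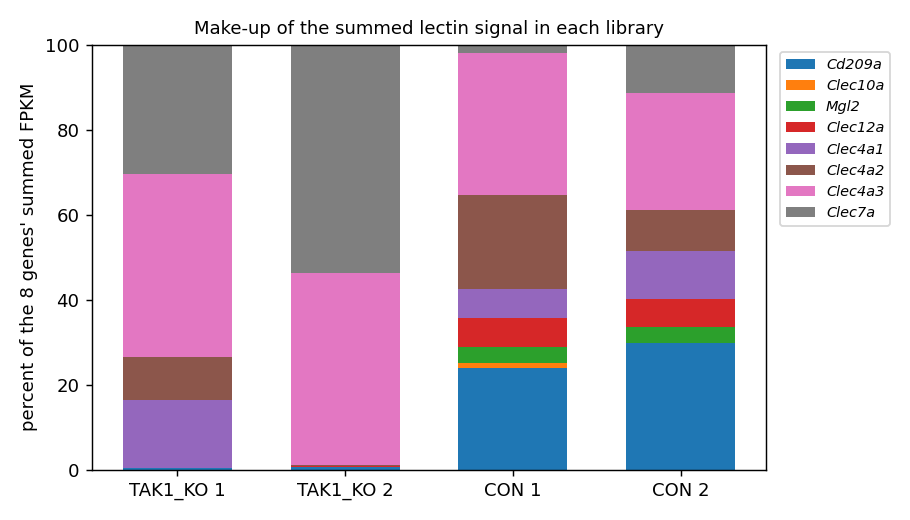
Make-up of the summed FPKM of the 8 lectin genes in each library, in percent of that sum, with the TAK1_KO libraries on the left. Clec4a3 and Clec7a fill most of the TAK1_KO bars, while Cd209a makes up 23.9% and 29.8% of the CON bars.

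The genes most like Cd209a over the 4 libraries were found by Euclidean distance between log2(FPKM + 1) values, each gene centred on its mean, among the 4419 genes that averaged 10 FPKM or more. They were Gemin6 (distance 0.87), Clec12a (1.16), S100a11 (1.35), Rgs18 (1.40) and Fkbp7 (1.45). For Clec12a they were Fkbp7 (0.45), Rgs18 (0.48), Mgl2 (0.53), Ccpg1os (0.61) and Gemin6 (0.62). Each of these other genes read under 1 FPKM in both TAK1_KO libraries and 77.9 to 249 FPKM in both CON libraries. Ccpg1os is an opposite-strand transcript, and without stated strand use its reads cannot be told from those of the overlapping gene. For Clec7a the nearest were Atp2c1 (0.19), Srp9 (0.52), Cdk5rap1 (0.56), Mga (0.58) and Blmh (0.58), none of which separated the groups. With 4 libraries, many genes share a profile.

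The lectin genes lie in clusters of related genes, and their neighbours did not all follow them. Clec4a1, Clec4a3 and Clec4a2 lie within 222152 bases of chromosome 6, and 7 of 9 listed lectin genes there were in the table. Between Clec4a3 and Clec4a2, Clec4a4 was listed at 0 in every library and Clec4b1 read 0.13 and 0.96 FPKM in TAK1_KO and 308 and 0.45 FPKM in CON. Clec4n, which encodes dectin-2, an activating receptor for fungal mannans, read 110.2 and 89.8 FPKM in TAK1_KO and 103 and 458 FPKM in CON. Its groups overlapped, and its level in CON 1 lay between the TAK1_KO values. Clec4e, which encodes Mincle, a receptor for mycobacterial glycolipid, read 0 and 0.04 FPKM in TAK1_KO and 14.7 and 0.04 FPKM in CON.

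Clec12a and Clec7a lie within 123003 bases of each other, also on chromosome 6, and there the groups were far apart in Clec12a and overlapped in Clec7a. Of 16 listed lectin genes of that region 11 were in the table, and 4 of the other 9 were high in a single library or in 1 library per group. Cd69, an early activation marker, read 0 and 9.65 FPKM in TAK1_KO and 163 and 0.18 FPKM in CON. Klrd1, a natural killer cell receptor subunit, read 0.19 and 0.30 FPKM in TAK1_KO and 0 and 86.6 FPKM in CON. Clec2i read 0 and 0.03 FPKM in TAK1_KO and 44.1 and 0 FPKM in CON. Klrb1b read 58.2 and 0.24 FPKM in TAK1_KO and 19.1 and 0.09 FPKM in CON, with no order by group.

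Beyond the 8 genes, 31 of 53 other listed C-type lectin domain genes were in the table and 17 were tested, of which 2 lay below both CON libraries and 0 above, where 11.4% and 27.8% of all genes tested did. The count below is near that of all genes. Their median log2 difference was -1.29, against 0.94 for all genes tested. None passed limma's moderated test across all genes (smallest Benjamini-Hochberg adjusted p = 0.698, and 0 at an unadjusted p under 0.05). Clec5a, a Tyrobp-coupled activating receptor of myeloid cells, read 99.8 and 112.8 FPKM in TAK1_KO and 276 and 220.3 FPKM in CON, without overlap (limma adjusted p = 0.698). Cd72, an inhibitory receptor of B cells and myeloid cells, read 506 and 343 FPKM in TAK1_KO and 496 and 446 FPKM in CON, in the same range. Cd302, an endocytic receptor, read 38 and 193 FPKM in TAK1_KO and 181 and 653 FPKM in CON, with overlap. Mrc1, the mannose receptor, was high in TAK1_KO 2 and CON 1, with 0.05 and 97.2 FPKM in TAK1_KO and 97.1 and 5.32 FPKM in CON. Layn, a hyaluronan receptor, read 11.3 and 19.2 FPKM in TAK1_KO and 7.63 and 62.6 FPKM in CON.

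In that fit, 0 of 7823 genes were called higher and 0 lower in TAK1_KO (0% each, smallest limma adjusted p = 0.547), with 602 genes at an unadjusted p under 0.05. Quantile normalization called 2 higher and 3 lower, the fit without TAK1_KO 1 called 697 higher and 4 lower, and the fit without TAK1_KO 2 called 1306 higher and 5 lower. With 2 against 2 libraries an exact two-sided permutation test of a single gene cannot go below p = 0.333.

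The receptors' adaptor genes Fcer1g, Tyrobp and Hcst and the kinase gene Lyn were present in all libraries. Syk was not, at 0 and 5.42 FPKM in TAK1_KO and 0 and 0.01 FPKM in CON. Card9, Bcl10 and Malt1 each read under 1 FPKM in at least 1 library. Of 21 tested genes of activating signalling, 2 lay below and 5 above both CON libraries, near the 11.4% and 27.8% of all genes tested, with 0 passing the test and a median log2 difference of 0.48. Fcer1g, the adaptor of dectin-2 and related receptors, read 4201 and 3841 FPKM in TAK1_KO and 5212 and 6073 FPKM in CON, without overlap (limma adjusted p = 0.629). Tyrobp, the adaptor DAP12, read 3184 and 1833 FPKM in TAK1_KO and 1621 and 1843 FPKM in CON, with overlap. Hcst, the adaptor DAP10, read 207 and 206 FPKM in TAK1_KO and 351 and 92.6 FPKM in CON, also with overlap. The Src-family kinase gene Lyn read 39.4 and 52.5 FPKM in TAK1_KO and 125 and 277 FPKM in CON, without overlap (limma adjusted p = 0.698).

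Of 6 tested genes of inhibitory signalling, 0 lay below and 2 above both CON libraries, where 11.4% and 27.8% of all genes tested did. Their median log2 difference was 0.98, close to the 0.94 of all genes. Ptpn6, which encodes SHP-1, read 78.5 and 54.5 FPKM in TAK1_KO and 15.8 and 24.7 FPKM in CON. Inpp5d, which encodes SHIP1, read 17.3 and 40.5 FPKM in TAK1_KO and 13.2 and 0.95 FPKM in CON. Neither passed the test (limma adjusted p = 0.698 each), and both stood above CON while the inhibitory receptor gene Clec12a stood below. Ptpn11 and Socs3 overlapped between groups.

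**Figure D4:**
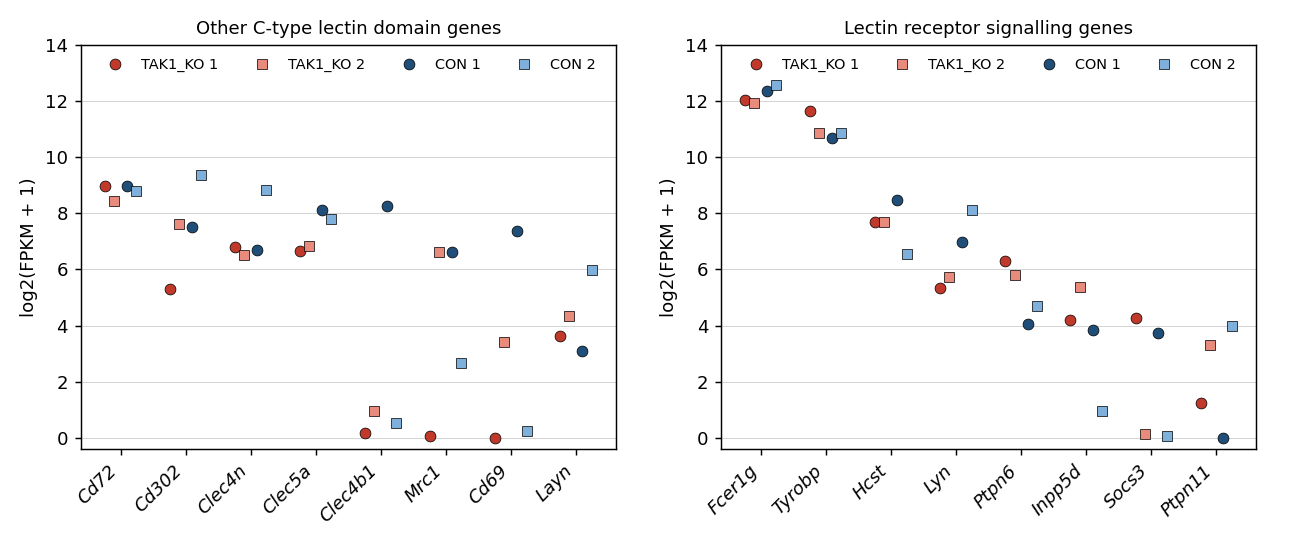
Levels in each library, log2(FPKM + 1), of the 8 most abundant other C-type lectin domain genes (left) and of signalling genes of the receptors (right), with TAK1_KO in red and CON in blue. Clec5a, Fcer1g and Lyn lie lower and Ptpn6 and Inpp5d higher in both TAK1_KO libraries, and none passed the test.

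Monocyte markers in the table (12 of 15 listed) summed to 195 and 241 FPKM in TAK1_KO and 871 and 1680 FPKM in CON. Of 8 tested, 3 lay below both CON libraries, 0 above and 5 overlapped, with none passing the test. Of all genes tested, 11.4% lay below and 27.8% above. Ccr2, which guides monocytes toward inflammation, read 1.81 and 0.59 FPKM in TAK1_KO and 316 and 151 FPKM in CON, and Ms4a4c read 138 and 120.2 FPKM in TAK1_KO and 417 and 1211 FPKM in CON. Plac8 was high in CON 2 alone, and S100a4 was high in 1 library per group. F13a1, a coagulation factor subunit of monocytes and macrophages, was high in TAK1_KO 2 alone, with 0.03 and 119 FPKM in TAK1_KO and 0.18 and 0.03 FPKM in CON. The part of monocytes in the lectin differences was not tested.

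Dendritic cell markers (14 of 16 in the table) summed to 437 and 342 FPKM in TAK1_KO and 123 and 349.6 FPKM in CON. Of 7 tested, 2 (Batf3 and Irf8) lay below and 3 above both CON libraries, where 11.4% and 27.8% of all genes tested did. The list thus went both ways. Irf8 read 10.2 and 8.72 FPKM in TAK1_KO and 35.1 and 24.2 FPKM in CON. Zbtb46, a defining factor of conventional dendritic cells, read at most 0.01 FPKM in any library and Ccr7 at most 0.08 FPKM. Cd83 read 253 and 188 FPKM in TAK1_KO and 33.4 and 115 FPKM in CON. Btla was high in 1 library per group, Batf3 ranged from 34.2 to 49.1 FPKM over all libraries, and Cadm1 read 55.8 and 41.1 FPKM in TAK1_KO and 0.19 and 2.11 FPKM in CON.

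Perivascular macrophage markers (12 of 12 in the table) summed to 190 and 873 FPKM in TAK1_KO and 2322 and 1554 FPKM in CON, most of it from Ms4a7 in CON. Ms4a7 read 189 and 155 FPKM in TAK1_KO and 1614 and 1547 FPKM in CON. Of 10 tested, 1 lay below both CON libraries and 0 above, where 11.4% and 27.8% of all genes tested did. Pf4 and Mrc1 were both high in TAK1_KO 2 and CON 1. Lyve1, Cbr2 and Stab1 read 61.8, 96.7 and 6.64 FPKM in TAK1_KO 2 and under 1 FPKM in every other library. Dab2 read 0.02 and 32.6 FPKM in TAK1_KO and 9.45 and 0.12 FPKM in CON. Folr2 and Cd36 were high in CON 1 alone, at 111 and 122 FPKM. Cd163 read at most 0.02 FPKM and Siglec1 was listed at 0 throughout. The part of these cells in the lectin differences was not tested.

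Among all genes tested, 27.8% lay above and 11.4% below both CON libraries. Of 15 homeostatic microglia markers, 9 lay above and 1 (Cx3cr1) below them. P2ry12, a purine receptor of resting microglia, read 1794 and 830 FPKM in TAK1_KO and 569 and 790 FPKM in CON. Rod photoreceptor markers (15 of 15) summed to 7259 and 11924 FPKM in TAK1_KO and 2974 and 4012 FPKM in CON, with 13 above and 0 below. Of 15 genes used by most cells, 3 lay below and 5 above, and Ppia ranged from 3957 to 4610 FPKM over the 4 libraries. Neutrophil and lymphocyte lists had 1 tested gene each, Csf3r (24.1 and 32.9 FPKM in TAK1_KO, 8.19 and 0.17 FPKM in CON) and Cd79b (119 and 196 FPKM in TAK1_KO, 0.25 and 105 FPKM in CON). The part of cell make-up in the lectin differences was not tested.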

How the data were processed

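Full-length cDNA of sorted cells was amplified by PCR, per the labels' protocols, and without molecular identifiers copies cannot be told from molecules. The authors deposited FPKM with 2 decimals, in 1 column per library, and the submitters' processing notes name mm10 as the build. For aligner, quantifier and annotation the sources used here give no name. Ratios of low values between libraries had no single common step (at most 9.72% of genes in the commonest bin), so depth was not recovered.

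Columns were matched to samples by title. Genes that averaged 1 FPKM or more were compared as log2(FPKM + 1), which understates the change of low genes, by limma 3.58.1 in R 4.3.3 (trended prior, Benjamini-Hochberg adjustment, threshold 0.05) on all 4 libraries. The code was tested on simulated data. Coordinates are RefSeq's on GRCm38.p6, where 15470 gene identifiers matched. Open reading frames, the longest from ATG to stop, came from GENCODE transcripts and were aligned with Biopython 1.88; protein sequences were not used here. Figures used matplotlib 3.10.9.

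The genes and lists were chosen with earlier results of these data known. Named were the 8 lectins, the 8 most abundant other C-type lectins, up to 4 most abundant genes of each other list, and the 5 nearest profiles of Cd209a, Clec12a and Clec7a, without symbols that are only identifiers. Clec4e, Klrd1, Clec2i, Klrb1b, Clec4a4, F13a1, Zbtb46, Ccr7, Irf8, Cd163, Siglec1, Cx3cr1, Map3k7 and Tnf were named after their values were seen. The same holds for the values given for Lyve1, Cbr2, Stab1, Dab2, Folr2, Syk, Card9, Bcl10 and Malt1. A few genes covered by this rule are not reported.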

Additional observations from a re-analysis of the deposited data

How the results depend on the processing

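The 7 lectin genes other than Clec7a kept a negative log2 difference under all alternatives in which they were tested (without CON 1, Clec10a fell under the filter). In each of these 7, both TAK1_KO libraries read below both CON libraries. Only rescaling of the libraries could therefore have changed the sign, and nothing is read from its stability elsewhere. The median over the tested lectins was -5.19, against -3.99 with a pseudocount of 5 FPKM and -6.53 to -3.00 when 1 library was left out, the extremes being without TAK1_KO 1 and without TAK1_KO 2. Median ratio scaling and quantile normalization left the median of all genes at 0.32 and 0.12 in place of 0.94, with the lectins at -6.24 and -5.53 relative to it. Without the filter the median of all genes was 0.014, with the lectins at -5.20 relative to it. Clec7a turned to -0.77 after median ratio scaling and ranged from -1.35 to 1.58 when 1 library was left out. Cd72 (-0.18) turned to 0.068 under quantile normalization, was -1.06 under median ratio scaling and ran from -0.46 to 0.10 when 1 library was left out. Leaving out 1 library gave -4.57 to 1.98 for Mrc1 (-1.29), -5.65 to 1.47 for Cd69 (-2.09) and -2.01 to 0.87 for Layn (-0.57). The causes were not tested.

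Genes called in place of 0 numbered 2 higher and 3 lower after quantile normalization, 15 higher and 20 lower with the replicate block, and 0 to 1306 higher and 0 to 5 lower when 1 library was left out, where the lone library is assumed to vary like the other group. The calls without a library came in the fits without TAK1_KO 1 (697 higher, 4 lower) and without TAK1_KO 2 (1306 higher, 5 lower). The groups share replicate numbers, and deviations of same-numbered libraries correlated at 0.02 across genes. This correlation cannot exclude a shared batch, so whether same-numbered libraries belong together is unknown. The block leaves 1 residual degree of freedom. The other alternatives called 0 genes.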

Other observations

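Cytokine and early-response genes that activating lectin receptors are known to induce (8 of 14 listed in the table, 6 tested) went both ways. Of those tested, 1 lay below and 1 above both CON libraries, where 11.4% and 27.8% of all genes tested did. Their median log2 difference was -0.69. Il1b, the gene of interleukin-1 beta, read 24.8 and 36.6 FPKM in TAK1_KO and 638 and 388 FPKM in CON (limma adjusted p = 0.559). Tnf read 80.1 and 43.4 FPKM in TAK1_KO and 0 and 0.04 FPKM in CON. Ccl2, a monocyte-attracting chemokine, read 1164 and 8224 FPKM in TAK1_KO and 11395 and 4999 FPKM in CON, with overlap. Cxcl2 was high in CON 1 alone, at 0.21 and 8.44 FPKM in TAK1_KO and 182 and 0.07 FPKM in CON, and Egr2 was high in 1 library per group, at 0.58 and 113 FPKM in TAK1_KO and 61.5 and 2.27 FPKM in CON.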
